A study of Homo sapiens with 6 samples.

Results

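SMARCA4 peaks of 1500 bp or more in K562 cells numbered 487 of 28265, or 1.72% of the peaks and 7.29% of the bases under them. They were selected on their width alone, as the end minus the start of each region. The cells come from a long-established line derived from a human chronic myelogenous leukaemia, and SMARCA4 was mapped in them by ChIP-seq, in which an antibody pulls down the DNA crosslinked to a protein and the recovered fragments are sequenced. The study has 3 SMARCA4 ChIP libraries and 3 input libraries, made from cells fixed with 2 mM disuccinimidyl glutarate for 30 min and 1% formaldehyde for 10 min and sheared to 150 to 400 bp. The deposited list pools the 3 ChIP libraries, without height or value per replicate, so no SD between libraries can be given. The design text calls the libraries technical replicates with a single input, whereas the paper calls them biological replicates. The wide peaks are set beside the 10732 peaks of 300 to 600 bp, named comparison peaks. All positions are on hg19 and counted from 1.

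SMARCA4, also called BRG1, is the ATPase that drives SWI/SNF complexes, which slide or evict nucleosomes and open DNA at promoters and enhancers. G-quadruplexes (G4s) are four-stranded structures that can form where runs of guanine follow each other. In erythroid cells such as K562 many enhancers carry sites for GATA factors, while promoters of widely used genes mostly lie in CpG islands, stretches rich in G, C and the dinucleotide CpG.

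The sequences of several wide peaks show how different they were. The first comes from a peak at a coding promoter, and capitals mark G4 motifs on both strands. A G4 motif is here a row of 4 G runs, each 3 or more guanines long, whose loops measure 1 to 7 bases. The stretch, from the widest such peak, lies in an intron of BRD2, at chr6:32937815-32938014 on the plus strand.
BRD2: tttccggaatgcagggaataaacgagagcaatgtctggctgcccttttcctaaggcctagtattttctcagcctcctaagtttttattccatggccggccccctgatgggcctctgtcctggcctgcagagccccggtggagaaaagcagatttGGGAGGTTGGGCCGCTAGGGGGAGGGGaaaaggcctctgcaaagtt

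At the widest peak over histone genes, the 247 bp between the divergent starts of H2BC11 and H2AC11, at chr6:27100575-27100821 on the plus strand, held 7 matches to CCAAT or TATAAA, in capitals. CCAAT is bound by NFY, and TATAAA is the core of the TATA box.
H2BC11 and H2AC11: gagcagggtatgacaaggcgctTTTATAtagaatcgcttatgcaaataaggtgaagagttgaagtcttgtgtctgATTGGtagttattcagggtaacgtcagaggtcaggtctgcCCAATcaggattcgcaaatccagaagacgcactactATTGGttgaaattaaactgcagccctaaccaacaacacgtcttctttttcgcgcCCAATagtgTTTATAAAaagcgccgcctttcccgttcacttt

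Away from promoters the stretches differed again. In the distal peak with most GATA matches, an intron of VMP1 at chr17:57863480-57863729 on the plus strand, capitals mark GATA with A or T before it and A or G after it, on either strand. In the distal peak with most G4 motifs, 7, outside coding genes near JUND at chr19:18403632-18403781 on the minus strand, they mark G4 motifs. In the distal peak with most AP-1 matches, outside coding genes near DBNDD1 at chr16:90062144-90062343 on the plus strand, they mark TGACTCA or TGAGTCA, repeated within a tandem unit. In the widest distal peak, outside coding genes near ZNF311 at chr6:28949425-28949504 on the plus strand, they mark a match to the B box of tRNA genes, an internal promoter element of RNA polymerase III. The B box was chosen after the peaks were seen.
VMP1: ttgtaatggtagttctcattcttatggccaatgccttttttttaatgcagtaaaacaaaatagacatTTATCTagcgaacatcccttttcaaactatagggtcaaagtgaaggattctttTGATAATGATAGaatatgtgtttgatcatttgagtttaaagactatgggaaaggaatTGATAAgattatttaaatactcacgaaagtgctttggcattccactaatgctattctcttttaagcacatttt
JUND, distal: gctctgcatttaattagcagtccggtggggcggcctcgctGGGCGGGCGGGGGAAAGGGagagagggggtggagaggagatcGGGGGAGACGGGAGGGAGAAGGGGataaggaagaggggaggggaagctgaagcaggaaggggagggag
DBNDD1: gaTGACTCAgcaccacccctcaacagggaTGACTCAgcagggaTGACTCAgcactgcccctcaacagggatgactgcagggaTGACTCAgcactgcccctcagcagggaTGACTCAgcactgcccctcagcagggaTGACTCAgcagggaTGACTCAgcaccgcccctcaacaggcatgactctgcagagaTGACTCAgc
ZNF311: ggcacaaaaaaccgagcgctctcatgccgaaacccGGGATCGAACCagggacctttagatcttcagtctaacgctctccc

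The width of the 487 peaks chose them and is given as a description. Their median was 1771 bp, with quartiles of 1607.5 and 2068 bp, and 143 reached 2000 bp, 22 reached 3000 bp and 7 reached 4000 bp. Just inside the threshold lay peaks of 1501 bp at VASP, a regulator of actin filaments, and at CHD1, a chromatin remodeller. Just outside lay peaks of 1499 bp at SDE2 and TBC1D5.

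The widest peak, of 10019 bp at chr11:65186076-65196094, lay over NEAT1, the long non-coding RNA that builds paraspeckles. MALAT1, a nuclear RNA transcribed from the same region of chromosome 11, carried 3 wide peaks within 11489 bp, together 9998 bp. The peak at BRD2 and HLA-DMA was 5970 bp wide, at chr6:32935204-32941173; BRD2 encodes a reader of acetylated histones. FTL, the ferritin light chain, lay wholly inside a peak of 4960 bp. Its partner FTH1, the heavy chain, had a wide peak of 2106 bp over its promoter and was the nearest coding gene to a distal wide peak of 2007 bp. FTH1 was picked out after its widths were seen. PPP1R15A, which takes part in dephosphorylating the translation factor eIF2, lay inside a peak of 4895 bp. This peak counts as start-adjacent by its midpoint, as defined below. The AP-1 factor JUND lay inside a peak of 4443 bp. After BRD2, FTL and JUND the next widest peaks at coding promoters were those of CFL1, which severs actin filaments, and its neighbour MUS81 (4146 bp), of GSE1 (4082 bp), of the pair H2AC11 and H2BC11 (3596 bp) and of GTPBP2 and MAD2L1BP (3326 bp). MIDN (3300 bp), NFE2L2 (3191 bp), the regulator of antioxidant genes, and the histone pair H2AC17 and H2BC17 (3104 bp) completed the 10 widest at coding promoters.

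Wide peaks lay mostly at coding promoters. With a promoter called where the midpoint of a peak was within 1 kb of the start of a protein-coding transcript, 320 of 487 wide peaks (65.7%, 95% Wilson interval 61.4 to 69.8) were at one, against 4051 of 10732 comparison peaks (37.7%). The odds ratio was 3.16 (95% Woolf interval 2.61 to 3.83). The midpoint does not reach further in a wide peak, so that this measure does not grow with width by construction. A start of coding transcripts on both strands lay inside 49 wide peaks (10.1%), among them those of BRD2 and HLA-DMA and of H2BC11 and H2AC11, against 2.89% of the comparison peaks (odds ratio 3.76, 2.74 to 5.16), a measure that a longer peak favours by itself. Distal peaks, with no base within 1 kb of any annotated start, were 82 (16.8%) of the wide and 5543 (51.6%) of the comparison peaks (odds ratio 0.190, 0.149 to 0.241). The other 85 wide peaks (17.5%) are called start-adjacent, and 63 of them had only non-coding starts within 1 kb, as at NEAT1 and MALAT1. The distal rule counts every base of a peak, so width itself lowers the distal share. By the midpoint, 77.6% of wide and 46.5% of comparison peaks lay within 1 kb of any annotated start (odds ratio 3.99, 3.21 to 4.95). Regions are not independent replicates, and all intervals cover counting error only. Against peaks of 600 to 1500 bp the odds ratio for promoters was 1.79 (1.48 to 2.18). With a coding start inside the peak as the rule, which width itself favours, it was 5.27 (4.34 to 6.39) against the comparison peaks.

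**Figure D1:**
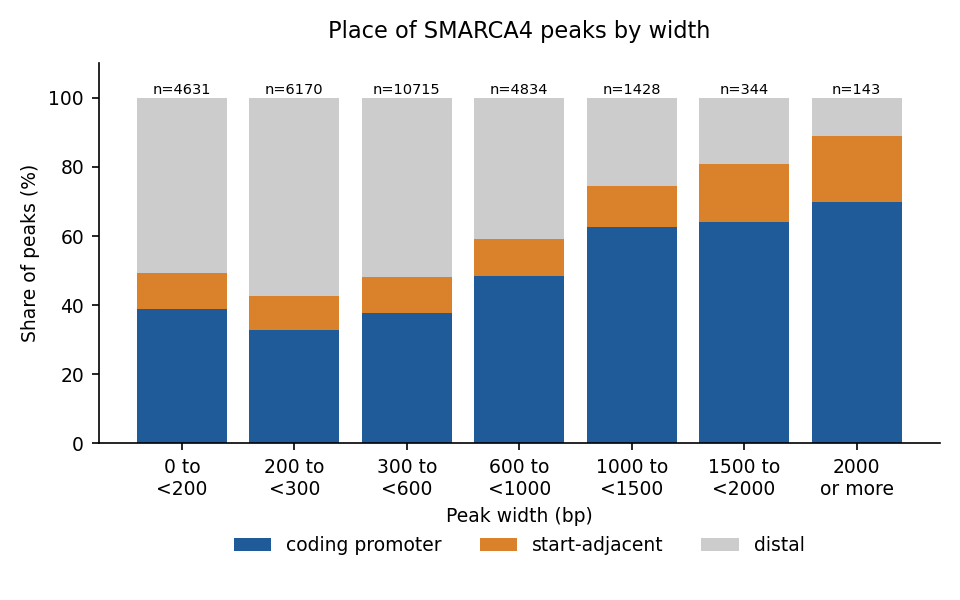
Share of SMARCA4 peaks (%) at coding promoters, start-adjacent and distal, in classes of peak width (bp), with the number of peaks above each bar. The promoter share was 37.7% at 300 to 600 bp, 62.5% at 1000 to 1500 bp and 69.9% at 2000 bp or more.

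Around a coding start the wide peaks reached about as far downstream as upstream. Among the 234 wide peaks with a single canonical coding start, the median reach was 864.5 bp upstream (781 to 910) and 930 bp downstream (890 to 1025), counted along the strand of the gene and past its end where the gene is short. The downstream reach was the longer in 129 of them (55.1%, 48.7 to 61.4), against 730 of 2106 comparison peaks (34.7%), an odds ratio of 2.32 (1.76 to 3.04). The reach of single peaks varied widely. The peak of MIDN had 2634 bp downstream of the start and 665 bp upstream, and that of PPP1R15A 4520 and 374 bp, running past the end of this gene of 3638 bp, whereas that of GSE1 had 1056 bp downstream and 3025 bp upstream. A whole coding gene was inside 17 wide peaks and 1 comparison peak, which short genes such as FTL, JUND, CEBPB and the histone genes allow and which a peak's length favours.

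**Figure D2:**
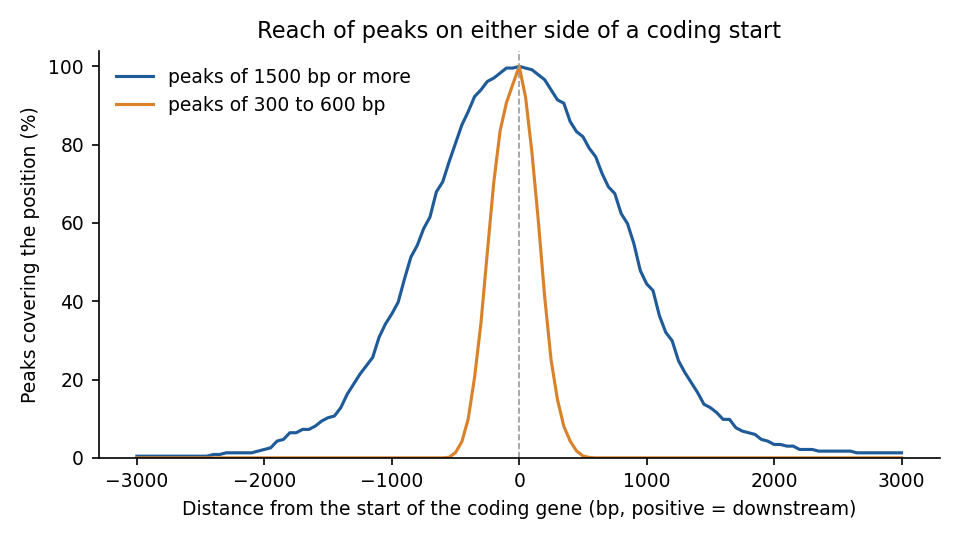
Percent of peaks that cover each position from 3000 bp upstream to 3000 bp downstream of a single canonical coding start, for 234 peaks of 1500 bp or more and 2106 peaks of 300 to 600 bp. At 500 bp upstream 80.3% of the wide peaks still covered the position, and at 500 bp downstream 82.1%.

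The GC content of wide peaks was higher over all places, with a median of 59.5% (58.3 to 60.5) against 52.5% (52.2 to 52.9), and 70.0% of wide peaks (65.8 to 73.9) lay above the comparison median. Peaks of 1000 to 1500 bp had a median of 60.7%. Within places the medians lay closer together or in the other order. At coding promoters the wide peaks had a median of 62.3% and the comparison peaks 65.9%, and 34.7% of the wide ones (29.7 to 40.1) lay above the comparison median. In the central 300 bp of promoter peaks, a window of equal length, the medians were 67.7% and 67.3%. At distal peaks they were 46.1% and 45.9% over the whole peak, and 41 of 82 wide peaks lay above the comparison median. The range ran from 33.4% to 80.1% GC, and the distal peak in VMP1 stood near the lower end with 34.5%.

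The stretch rich in CpG around the start was longer at wide peaks. Between 500 and 1000 bp downstream of the start there were 73.0 CpG per kb at wide peaks and 40.3 at comparison peaks (ratio 1.81, delta-method 95% interval over peaks 1.68 to 1.96), and between 1000 and 500 bp upstream 50.9 and 29.7 (ratio 1.71, 1.57 to 1.87). In the first 500 bp downstream the ratio was only 1.20 (1.15 to 1.25), with 108.3 and 90.3 CpG per kb. These distances were chosen after the data were seen, and both sets were read in the same windows whether or not a peak reached them.

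**Figure D3:**
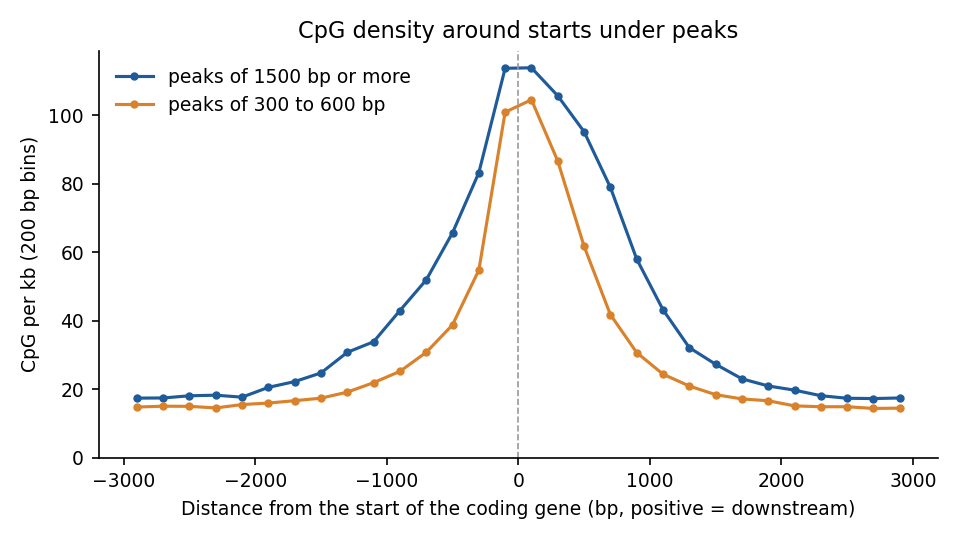
CpG per kb in bins of 200 bp around a single canonical coding start, for 234 wide and 2106 comparison peaks, with distance in bp and positive values downstream. The curves lie close at the start, with 113.9 and 104.5 CpG per kb in the first bin downstream, and part on both flanks, with 79.0 and 41.8 CpG per kb in the bin centred at 700 bp.

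G4 motifs were denser in wide than in comparison peaks, and GATA matches sparser. Wide peaks held 1.23 G4 motifs per kb and comparison peaks 0.771, a ratio of 1.59 (1.44 to 1.76), and the ratio was 1.03 (0.930 to 1.15) at coding promoters and 1.70 (1.10 to 2.63) at distal peaks. Peaks of 1000 to 1500 bp held 1.25 G4 motifs per kb, those of 1500 to 2000 bp 1.32 and those of 2000 bp or more 1.07. Of 320 wide promoter peaks 267 (83.4%) held a G4 motif, with a median of 3 and at most 13 in a peak, as in GSE1 and E2F3. At distal wide peaks only 27 of 82 held one, and the peak near JUND with 7 had most. In the central 300 bp a G4 motif was found in 167 wide peaks (34.3%) and in 17.8% of comparison peaks, against 18.9% of all peaks and 3.20% of 300-bp windows across the genome. This gave an odds ratio of 2.42 (1.99 to 2.93), and of 1.58 (1.26 to 1.98) by Mantel-Haenszel over GC classes of 5 percentage points. At coding promoters the central shares were 43.1% and 32.8% (odds ratio 1.55, 1.23 to 1.96). Against peaks of 600 to 1500 bp over all places the odds ratio was 1.56 (1.28 to 1.90). Counted over the whole peak, where a longer peak holds more sequence, it was 8.30 (6.79 to 10.1) against the comparison peaks.

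GATA matches numbered 1.24 per kb in wide peaks and 2.55 in comparison peaks (ratio 0.485, 0.443 to 0.531). In the central 300 bp the ratio of densities was 0.287 (0.230 to 0.358). At coding promoters the densities over the whole peak were 0.776 and 0.767 per kb, but a match lay in the central 300 bp of 9.69% of the wide and 18.5% of the comparison peaks there (odds ratio 0.472, 0.323 to 0.690). Among distal peaks they were 2.51 and 3.92 (ratio 0.642, 0.558 to 0.738), and a match lay in the central 300 bp of 33 of 82 wide peaks (40.2%, 30.3 to 51.1) and of 74.4% of the comparison peaks, with 48.8% of genome windows of this length. Over their whole length 77 of 82 wide distal peaks held a GATA match, with a median of 5, and the VMP1 peak held 15. The list gives no summits, so the midpoint of a wide peak need not be near its strongest signal. The central 300 bp are also a smaller part of a wide peak than of a comparison peak. Both limits hold for every motif counted in that window.

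Other motifs divided by place as well. TGACTCA and TGAGTCA together gave a ratio of 0.828 (0.340 to 2.02) at distal peaks, where 44 of the 97 matches were in the repeat near DBNDD1. Without that peak, a setting chosen after the data were seen, the ratio was 0.459 (0.341 to 0.616). In the central 300 bp 4 of all 82 wide distal peaks held a match (4.88%), against 25.4% of comparison peaks and 4.58% of genome windows. CCGGAAGT, bound by ETS factors, was sparser in wide promoter peaks (ratio 0.338, 0.244 to 0.469), with 43 matches in 320 peaks, a density over peaks of unequal length. Shares in windows of equal length at the start are given below. GGGCGG, bound by SP and KLF factors, had a ratio of 0.878 (0.814 to 0.947) at promoters and 1.5 (1.06 to 2.13) at distal peaks. The direction at promoters was not the same in windows of equal length, with a match in the central 300 bp of 73.1% of wide and 68.4% of comparison peaks (odds ratio 1.26, 0.973 to 1.62). The motif of CTCF, which marks insulators and loop anchors, was found 23 times in all 487 wide peaks, at a ratio of 0.354 (0.230 to 0.546). Of these matches 19 were at coding promoters, where the ratio was 0.692 with an interval that includes 1 (0.415 to 1.155), and 2 at distal peaks (ratio 0.169, 0.0422 to 0.677).

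**Figure D4:**
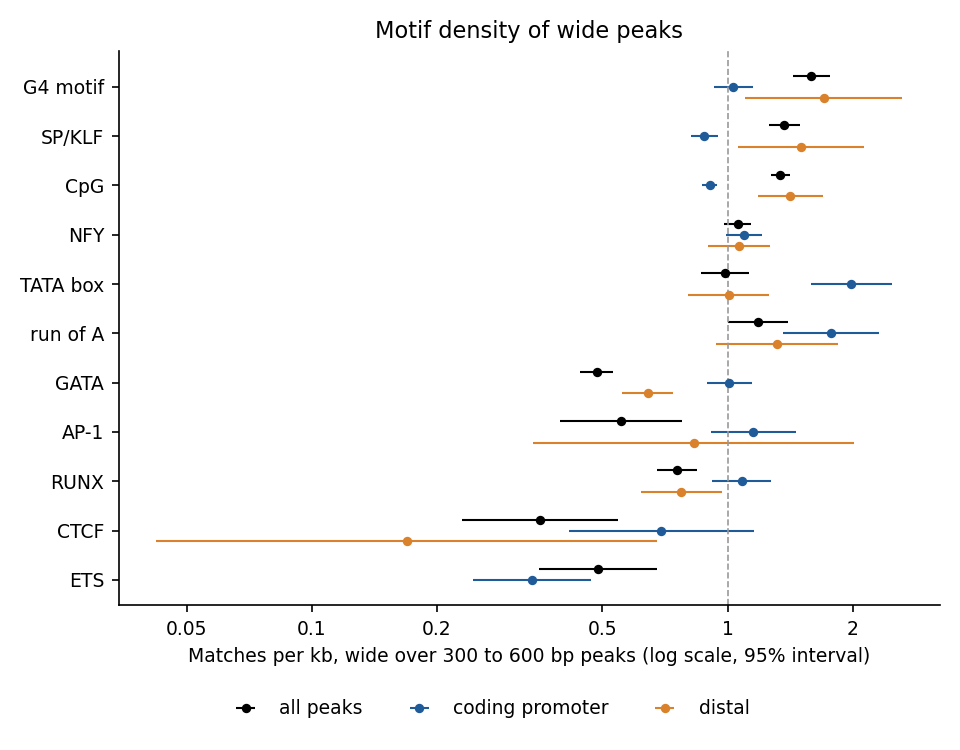
Ratio of motif matches per kb in wide peaks to that in peaks of 300 to 600 bp (log scale), with 95% intervals from the spread over peaks, for all places, coding promoters and distal peaks. The G4 ratio is 1.59 over all peaks and 1.03 at promoters, the GATA ratio 0.485 over all and 0.642 at distal peaks, and the TATA box ratio 1.99 at promoters. ETS has no distal point because no wide distal peak held a match.

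TATAAA was denser in wide promoter peaks, at 0.358 per kb against 0.180 (ratio 1.99, 1.59 to 2.48), while over all places the ratio was 0.986 (0.862 to 1.13). In the central 300 bp of promoter peaks, 4.69% of wide and 4.07% of comparison peaks held a match (odds ratio 1.158, 0.674 to 1.99). In windows of equal length, from 250 bp before to 50 bp after the canonical start, it was present at 13.8% of the 333 starts inside wide peaks and at 3.74% of the 2671 inside comparison peaks (odds ratio 4.12, 2.85 to 5.97), and at 9.56% of all 19540 coding starts. Without the histone genes the shares in wide and comparison peaks were 9.65% and 3.64% (odds ratio 2.83, 1.85 to 4.34). The share over all coding starts includes the histone genes. CCAAT was present at 43.5% of starts in wide and 30.9% in comparison peaks (odds ratio 1.73, 1.37 to 2.18), with 36.0% over all coding starts. In the central 300 bp of promoter peaks CCAAT was found in 24.1% and 25.4% (odds ratio 0.929, 0.712 to 1.21), and its density ratio at promoters was 1.10 (0.991 to 1.21). At the starts G4 motifs were present at 39.3% and 33.9% (odds ratio 1.26, 0.9998 to 1.6), with 34.1% over all. Without the histone genes the odds ratios were 1.48 (1.17 to 1.89) for CCAAT and 1.42 (1.11 to 1.80) for G4 motifs. GGGCGG was present at 80.8% and 76.9% (odds ratio 1.26, 0.948 to 1.68), with 61.8% over all coding starts. Without the histone genes its odds ratio was 1.77 (1.28 to 2.46). In the same windows CCGGAAGT was present at 8.11% of starts in wide and 11.8% in comparison peaks (odds ratio 0.662, 0.439 to 0.999), with 6.13% over all coding starts. Without the histone genes its odds ratio was 0.713 (0.472 to 1.08), an interval that includes 1. GATA matches were present at 8.11% and 12.7% (odds ratio 0.607, 0.403 to 0.914), with 18.2% over all coding starts. A match describes the letters only.

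Of 19794 protein-coding genes, 403 had a wide peak within 1 kb of a start, a background of 2.04%, while 21.6% had a comparison peak and 46.8% had a peak of any width. Among the genes with any peak, 4.35% had a wide one. The lists of genes are described by counts beside these shares, with no test. The distance is taken from the edge of a peak, so a counted peak may lie beside the start. Peaks named below for IER2 (3331 bp), DDIT4 (2653 bp) and KLF1 (1878 bp), among others, held no coding start. The start of DDIT4 lay in another wide peak, of 2357 bp. Of the erythroid transcription factors, 16 of 20 had a peak of some width, against 3 of 22 transcription factors of other lineages.

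In the lists of stress and signalling genes, between 15.8% and 38.9% of the genes had a wide peak, beside 2.04% of all coding genes. Of their genes with any peak, between 21.4% and 43.8% had a wide one, beside 4.35%. In the integrated stress response, which adapts translation and amino acid supply, 7 of 18 genes did (38.9%, 20.3 to 61.4). They were PPP1R15A (4895 bp), DDIT4 (2653 bp), an inhibitor of mTOR signalling, CEBPB (2431 bp), ATF3 (1913 bp), the amino acid transporter subunits SLC3A2 (1891 bp) and SLC7A11 (1551 bp), and DDIT3 (1571 bp), which encodes CHOP. ATF4, the central factor of the pathway, had a widest peak of 1233 bp. Of the 13 AP-1 factors, which bind TGACTCA as dimers, 4 had a wide peak: JUND (4443 bp), MAFG (1918 bp), ATF3 and FOSL1 (1744 bp), whereas JUN reached 1421 bp and FOS 337 bp. Immediate early genes, which respond to growth signals without new protein synthesis, had 5 of 20, namely IER2 (3331 bp), KLF6 (1956 bp), NR4A2 (1904 bp), BTG2 (1756 bp) and SRF (1541 bp), with EGR1 just short at 1488 bp and MYC at 681 bp. Feedback inhibitors of signalling had 3 of 19: the phosphatase DUSP1 (2677 bp), SOCS2 (2514 bp) and SPRY4 (1582 bp). Of 17 heat shock protein genes 4 had one, HSP90AB1 (2016 bp), HSPA1A (1643 bp), HSPA5 (1627 bp) and DNAJB1 (1511 bp). HSPA1A and HSPA1B are near-identical copies that share reads, so their widths are uncertain.

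Histone genes expressed in S phase stood beside these lists, with a wide peak within 1 kb of a start of 24 of 68 (35.3%, 25 to 47.2), and 24 of the 43 with any peak. The 24 genes shared 15 peaks, because neighbours such as H2AC4 and H3C2 (3045 bp) or H1-4 and H2BC5 (2989 bp) lie near the same one. Histone genes are also similar in sequence, so that reads could be placed among copies. Chromosome 6, which holds most of them, carried 68 wide peaks (14%) and 7.17% of comparison peaks (odds ratio 2.1, 1.61 to 2.74). From 26 to 34 Mb, the stretch of the histone and MHC genes, the odds ratio was 5.02 (3.43 to 7.36), and over the rest of the chromosome 1.24 (0.869 to 1.78). Copy number in K562 was not measured, and its part in this was not tested.

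The lists of the red cell programme are short, so their intervals are broad. Of 20 erythroid transcription factors RUNX1 (2110 bp) and KLF1 (1878 bp) had a wide peak (10%, 2.79 to 30.1, beside 2.04% of all coding genes), with TAL1 at 1416 bp and GATA1 at 644 bp. Of 12 heme synthesis genes UROD alone did (1524 bp), or 8.33% (1.49 to 35.4). Of the genes with any peak in these lists, 12.5% and 10% had a wide one, beside 4.35% over all coding genes. None of 10 globin genes (Wilson upper bound 27.8%) and none of 19 red cell membrane genes (16.8%) had one, although 18 of the latter had a peak of some width. Globin genes are similar copies as well, and the widest peak at HBE1 was 607 bp. Ribosomal protein genes had 1 of 87, RPL10 (1518 bp), although 79 had a peak, and proteasome genes had 0 of 31, although 27 had a peak. Of 26 SWI/SNF subunit genes only ARID1A had a wide peak (2000 bp), and SMARCA4 itself reached 1058 bp. Of 19 genes for G4 helicases and G4 binding proteins only the helicase gene DDX5 did (3028 bp). HOX genes had 0 of 39 and other-lineage factors 0 of 22.

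**Figure D5:**
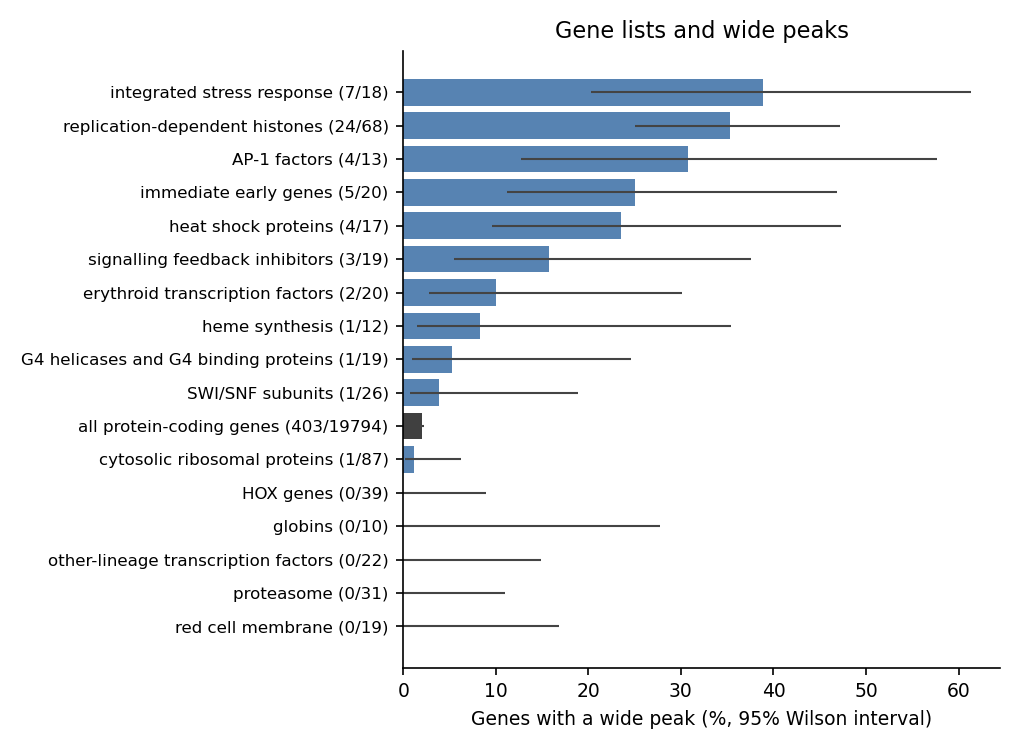
Percent of the genes of each list with a wide peak within 1 kb of a start, with 95% Wilson intervals and the counts in brackets, and all protein-coding genes as the dark bar. Integrated stress response genes stand at 38.9% and histone genes at 35.3%, beside 2.04% of all coding genes.

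Wide peaks often had company. Another peak lay within 5 kb, edge to edge, of 328 wide peaks (67.4%) and of 48.3% of comparison peaks (odds ratio 2.21, 1.82 to 2.68), and at distal peaks the shares were 64.6% and 43.4% (odds ratio 2.38, 1.51 to 3.76). For peaks of 2000 bp or more the odds ratio was 4.21 (2.79 to 6.33). In 239 wide peaks (49.1%) a neighbour was within 1 kb, against 28.0% of comparison peaks. With peaks at most 500 bp apart merged, the odds ratio at 5 kb was 1.66 (1.47 to 1.87). Whether close neighbours are parts of a single region split by peak calling was not tested. Wide peaks at most 10 kb apart formed 28 chains with 58 members, the largest with 3, at MALAT1 and at the histone genes around H2AC7 and H2AC8. Genes with a pair of wide peaks within 1 kb of their starts included DDIT4 (together 5010 bp), RHOF (4823 bp), ACTB (4188 bp), which encodes beta-actin, H2AC20 and H2BC21 (4177 bp each, over the same peaks), LUC7L2 (3959 bp), ARID1A (3579 bp) and TNRC18 (3523 bp).

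The 82 distal wide peaks lay a median of 16.4 kb from a coding start, and the distal comparison peaks 19.8 kb. The widest, of 3210 bp at chr6:28948038-28951247, was nearest to ZNF311. It was followed by the intronic peak in VMP1 (3127 bp), an autophagy gene, at chr17:57861669-57864795, and by a peak of 2640 bp nearest to MDM4, an inhibitor of p53. The others of the 10 widest were nearest to TGIF1 (2370 bp), H4C8 (2290 and 2250 bp), ASTN2 (2250 bp), OR4D9 (2221 bp), PDIK1L (2153 bp) and JUND (2137 bp). A nearest gene is a position only, and no link between these peaks and the genes was measured.

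Matches to the B box of tRNA genes and starts of small RNA genes lay in some of the wide peaks. The B box pattern was found 31 times in 21 wide peaks, 10 of them distal and 7 on chromosome 6, and the peak nearest to OR4D9 held 5. It was searched by its letters only, without masking of repeats, and whether a match belongs to a tRNA gene was not tested. The density was 32.5 per Mb in wide and 12.4 per Mb in comparison peaks, a ratio of 2.62 (1.5 to 4.59). Starts of 11 small nuclear RNA genes or their pseudogenes lay inside wide peaks, among them RNU4-1 and RNU4-2 in a peak of 2782 bp, against 5 in comparison peaks, which cover 4597.87 kb to the 953.6 kb of the wide ones. These RNA classes were chosen after the peaks were seen, and their repeated copies share reads.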

How the data were processed

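Before deposit the authors used cutadapt for trimming and BWA for alignment to hg19, removed duplicates, called peaks for each replicate with MACS2 at a q-value of 0.05 and kept the regions found in at least 2 of 3 replicates. The deposited file holds 3 columns, which name a chromosome and give a region's limits in bp, with no signal or score, and its depth per library is not analysed here. Joining regions across replicates can set where a wide peak ends. From the list, width, place, GC content and motif matches were computed with Python 3.11.15, numpy 2.4.6, pandas 2.3.3 and pysam 0.24.0 on the GRCh37 sequence and GENCODE 44 annotation lifted to it. Shares carry Wilson, odds ratios Woolf and densities delta-method intervals of 95%. Genes were named at the 10 widest promoter and 10 widest distal peaks, with 2 or more wide peaks, in the lists, and nearest the threshold; some items are not reported here. The members and lists were chosen with earlier results of these data known. Alternatives covered width, comparison peaks, merging, chromosomes, promoter and motif rules.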

Additional observations from a re-analysis of the deposited data

How the results depend on the processing

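Of 62 values recomputed under other settings, 58 stayed on their side of 1 or 50% with the interval including or excluding it as before, or, for counts, stayed within 1.5 times, and none reversed. Among the 58 is the gene count of 403 beside peaks of 600 to 1500 bp. That count could not change, since comparison peaks do not enter it. By the midpoint, the odds ratio for coding promoters ranged from 1.79 to 4.67. Rules that width itself favours gave 3.67 for any base within 1 kb of a coding start and 5.27 for a coding start inside the peak. Both values are among the 58. The share of wide peaks above the comparison GC median ranged from 57.1% to 75.1%. The G4 density ratio ranged from 1.19 to 2.00 and the GATA density ratio from 0.287 to 0.686. The odds ratio for a central G4 motif ranged from 1.56 to 2.59, with 8.30 for a motif anywhere in the peak. That for a neighbour ranged from 1.66 to 4.21. The number of genes with a wide peak was 403, and 827 at 1200 bp or more, 138 at 2000 bp or more and 1012 with peaks at most 500 bp apart merged, which by construction changes how many peaks count as wide (1095, 143 and 1199). The distal AP-1 ratio of 0.828, whose interval included 1, became 0.459 without the peak with most matches, with an interval below 1. Leaving out that peak, the histone genes or 26 to 34 Mb of chromosome 6 was chosen after seeing the data. No paired analysis was possible because the replicates were merged into a single list before deposit, and for the same reason no replicate could be left out. The alternative without soft-masked peaks was not run, since the sequence used here carries no masking. The counts of peaks limit the precision, above all for the 82 distal ones.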

Other observations

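Wide peaks on chromosome 18 lay over a pair of antisense transcripts, a locus picked out after its widths were seen. Peaks of 3793 bp at chr18:3602597-3606389 and of 3219 bp at chr18:3593224-3596442 covered starts of DLGAP1-AS2 and DLGAP1-AS1, and a distal peak of 2370 bp followed at chr18:3623005-3625374. The first held 9 GATA and 4 AP-1 matches and no G4 motif.

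MicroRNA genes also started inside wide peaks. There were 13 of them, or 13.6 per Mb, against 28 in comparison peaks, or 6.09 per Mb, and long non-coding RNA genes started at 171 and 160 per Mb. The snRNA genes stood at 11.5 and 1.09 per Mb. These classes were chosen after the peaks were seen, and no test was made of their densities.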
